A study of Homo sapiens with 6 samples.

Results

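Most of the protein machinery of oxidative phosphorylation is encoded in the nucleus, and 91 of the 58676 genes in the deposited table of RNA levels belong to it. They were chosen by name and position, with earlier results of these data known. Members are protein-coding genes outside the mitochondrial genome whose symbols mark subunits of respiratory complexes I to IV or of ATP synthase. ATP synthase is complex V. Assembly factors were left out. Complex I contributed 38 genes, complex II 4, complex III 10, complex IV 19 and complex V 20. NDUFA4 and its paralog NDUFA4L2 were placed in complex IV, where the NDUFA4 protein sits, although their symbols carry the prefix of complex I.

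The study measured RNA by sequencing in a human cell line that the labels call HCC, the usual abbreviation of hepatocellular carcinoma, without naming the line. The groups used here are knockdown (library titles sponge-1 and sponge-3, called knockdown 1 and 3) and control (238-1, 238-2 and 238-3, called control 1 to 3). The series title refers to cells treated with miR-19a, and the sequence, delivery and duration of the sponge are not given in the labels. All cells were grown in DMEM with serum, and the labels do not state that replicate libraries derive from different cultures. A p-value here therefore weighs a difference against library-to-library spread that could be purely technical. The remaining library labelled knockdown was left out because its values do not follow the gene identifiers of their rows. Its rank correlation with the other libraries was 0.0173 to 0.0191, against 0.822 to 0.887 among the other 5, and it listed 70 of the 91 genes at 0.

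Respiratory complexes I, III and IV move electrons from NADH to oxygen and pump protons across the mitochondrial inner membrane, complex II feeds in electrons from succinate, and complex V uses the proton gradient to make ATP. A catalytic core in each complex is surrounded by accessory subunits that stabilize it, and several complex IV subunits have alternative isoforms used in muscle, testis or low oxygen. Liver cells are rich in mitochondria, and their tumours are often described by how far they rely on glycolysis in place of respiration.

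The libraries held 9296308 and 15198231 assigned reads in knockdown 1 and 3, against 9181567, 1948940 and 19605312 in control 1, 2 and 3, so that control 2 is the shallowest and gives the least precise values. The host transcript of the miR-19a cluster, MIR17HG at chr13:91347820-91354579 (GRCh38), had 1.26 and 1.13 RPKM (reads assigned to the gene, scaled to exon length and to the library's total) in knockdown 1 and 3, against 0.811, 0.441 and 1.24 RPKM in control 1, 2 and 3, and the precursor genes MIR19A and MIR19B1 were at 0 in all 5 libraries. These values do not test the labels, since a sponge acts on the mature miRNA, which was not measured. All 15 hepatocyte markers examined were at a level of 0.5 RPKM or higher in 3 or more libraries, and their summed levels were 2522 and 2785 RPKM in knockdown 1 and 3 and 2347 to 2640 RPKM in the controls. Of the markers of blood and immune cells 5 of 11 reached that level. CD14 (28.6 to 38.4 RPKM) and LYZ (8.59 to 11.6 RPKM) were among them. CD3D had 6.14 and 6.09 RPKM in the knockdown libraries against 4.46, 3.87 and 3.07 RPKM in the controls. HBA1 had 1.55 and 1.89 RPKM against 0.783, 1.23 and 0.672 RPKM, and HBA2 1.82 and 3.02 RPKM against 1.19, 1.86 and 0.802 RPKM. PTPRC was under 0.1 RPKM in every library, and MS4A1 and HBB were at 0 in all 5. Of the fibroblast and endothelial markers 5 of 11 reached 0.5 RPKM in 3 or more libraries. LUM was at 53.5 to 68.3 RPKM, COL1A2 at 7.54 to 14.7 RPKM and KDR at 0 in all 5. The summed levels of the blood and immune markers were 49.6 and 57.3 RPKM in knockdown 1 and 3 and 47.6 to 53.3 RPKM in the controls, and those of the fibroblast and endothelial markers 72.9 and 68.8 RPKM against 64.7 to 84.2 RPKM. In RNA from whole cultures, fewer cells of a kind and less RNA per cell cannot be told apart.

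The miRNA sequences and the sites they could pair with are shown first, because the study manipulated miR-19a. The mature miRNAs of the miR-19 family, from RefSeq (GRCh38.p14), share 1 seed (bases 2 to 8, in capitals), and the second also has a copy on the X chromosome.
hsa-miR-19a-3p (chr13:91350939-91350961, plus strand): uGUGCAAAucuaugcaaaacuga
hsa-miR-19b-3p (chr13:91351245-91351267, plus strand): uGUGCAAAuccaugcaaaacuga
The complement of that seed, TTTGCAC, was searched on the sense strand in the longest annotated 3′ UTR of each gene. It was found in 1 of the 91 genes, against 14.2% of the 19436 protein-coding genes with an annotated 3′ UTR. That gene is COX8C, a testis isoform of a complex IV subunit on chromosome 14, and the match (capitals) starts at base 139 of its 236-base UTR.
COX8C: tatgatgaatatTTTGCACttttttagtac
COX8C was at 0.202 and 0.123 RPKM in knockdown 1 and 3 and at 0 in the 3 controls, and it did not pass the filter on low levels. None of the 80 members that passed it holds the match, against 16.1% of the protein-coding genes tested.

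The 3′ UTRs of the members are short, with a median of 451 bases against 1336.5 bases over all protein-coding genes, and length bears directly on the count. Per 100 kb of UTR the members held 0.898 matches, against 8.69 over all protein-coding genes. Among UTRs longer than 2000 bases, 0 of 15 members held the match, against 28.4% of all protein-coding genes in that length class. The 6 leading bases of the match, TTTGCA, were found in 29.7% of the members, against 45.1% of all protein-coding genes, and per 100 kb at 44.0 against 48.0. The 6 trailing bases, TTGCAC, were found in 14.3% of the members, against 30.1% of all protein-coding genes. Per 100 kb the trailing bases were at 17.96 against 23.75. Trailing bases followed by A, as in NDUFS1 from base 2051 of its UTR, were not counted separately. Examples of the leading bases come from members whose levels are described further on, with TTTGCA in capitals.
NDUFS1, from base 165 of its UTR: ttagttatcaacTTTGCAgtttgaaaaac
COX4I1, from base 496 of its UTR: agaacaggcattTTTGCAttctgaatagg
UQCRC2, from base 442 of its UTR: tgttttgcctttTTTGCAataaaattatt
A match is a description of letters and says nothing of whether a miRNA binds there.

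The promoters of the members share short motifs more often than other promoters do. RefSeq promoter windows of 300 bases, from 250 before to 50 after the start, were matched for 71 of the 91 genes and searched on both strands. The core of the motif of NRF1, a factor known to drive respiratory genes, was spelled GCGCATGCG and found in 14.1% of the 71, against 2.73% of the promoters of protein-coding genes and 2.10% of all promoters. The motif of ETS factors, CCGGAAG, which GABPA among others reads, was found in 28.2%, against 14.4% and 10.7%. The motif of YY1, AANATGGCG, was found in 22.5%, against 4.93% and 3.37%. At least 1 of the motifs was found in 49.3% of the members, against 20.1% of protein-coding promoters, and in no member did an ETS match overlap a YY1 match. Of the members' YY1 matches, only those of NDUFS8 and ATP5PF lie before the start site, and the others lie after it. The following stretches (GRCh38.p14, 5′ to 3′ on the gene's strand, motif in capitals) show a gene with each motif and lie before the start site.
NDUFB4, NRF1 core on both strands, chr3:120596162-120596201, plus strand: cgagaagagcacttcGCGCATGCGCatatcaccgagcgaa
NDUFB7, ETS, chr19:14572069-14572105, minus strand: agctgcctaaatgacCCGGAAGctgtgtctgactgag
UQCR11, ETS on both strands, chr19:1605538-1605594, minus strand: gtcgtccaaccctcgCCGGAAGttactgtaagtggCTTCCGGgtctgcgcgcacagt
NDUFS8, YY1, chr11:68030486-68030524, plus strand: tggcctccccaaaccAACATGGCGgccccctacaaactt
Members with and without a motif had close median differences between knockdown and control. The median log2 difference was 0.25 with and 0.24 without the NRF1 core, 0.23 with and 0.25 without the ETS motif, and 0.20 with and 0.26 without the YY1 motif.

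Mean levels of the members ran from 0 to 388.3 RPKM. By their mean over the 5 libraries, 11 of the 91 genes were at 100 RPKM or more, 54 between 10 and 100, 9 between 2 and 10, and 17 below 2 RPKM. The median member was at 25.8 RPKM.

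**Figure D1:**
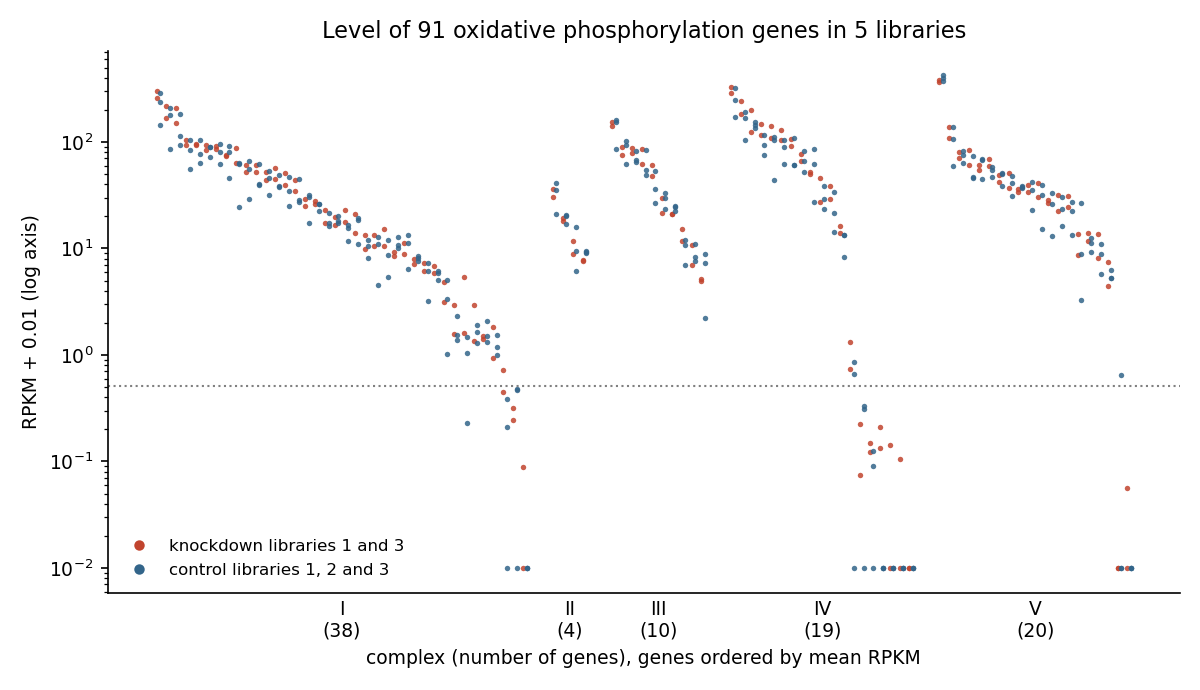
Level of each of the 91 genes (RPKM + 0.01, log axis) in the knockdown libraries 1 and 3 and the control libraries 1, 2 and 3, by complex and ordered by mean level within it. The dotted line marks 0.5 RPKM, the minimum for the test. Points of both groups lie over each other at most genes, and mean levels run from 388.3 RPKM for ATP5F1B in complex V down to 0 for COX6A2 in complex IV.

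Between knockdown and control no member passed the test. The test was limma on log2(RPKM + 0.5), two-sided, over the 15408 genes that reached 0.5 RPKM in no fewer than 3 of the 5 libraries, and 80 of the 91 members were among them. At an adjusted p (Benjamini-Hochberg over all genes) under 0.05, 0 members were higher and 0 lower, against 0% of all genes tested in either direction. At an unadjusted limma p under 0.05, likewise 0 members were higher and 0 lower, against 3.8% of all genes higher and 2.54% lower. The lowest adjusted p of any member was 0.71. Differences are given as knockdown minus control on that log2 scale, which understates changes of genes near 0.5 RPKM.

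The members leaned to one side all the same. The log2 difference was above 0 in 64 of 80 members and below 0 in 16, against 50% of all genes above 0, and the median difference was 0.23, against 0.00 over all genes tested. Few of them separated the groups: both knockdown libraries were above all 3 controls in 4 members (5%), against 14.3% of all genes, and below all 3 controls in 4 members (5%), against 13.6% of all genes. In 75 of the 80 members (93.75%) the range of the 3 controls was wider than the difference between the groups, against 81.2% of all genes tested. The median range of the controls on the log2 scale was 0.72 in the members and 0.52 over all genes tested. The 4 genes above are NDUFA3, NDUFB9, COX7A2L and ATP5MC2, and the 4 below are NDUFS1, SDHC, UQCRC2 and ATP5F1A.

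**Figure D2:**
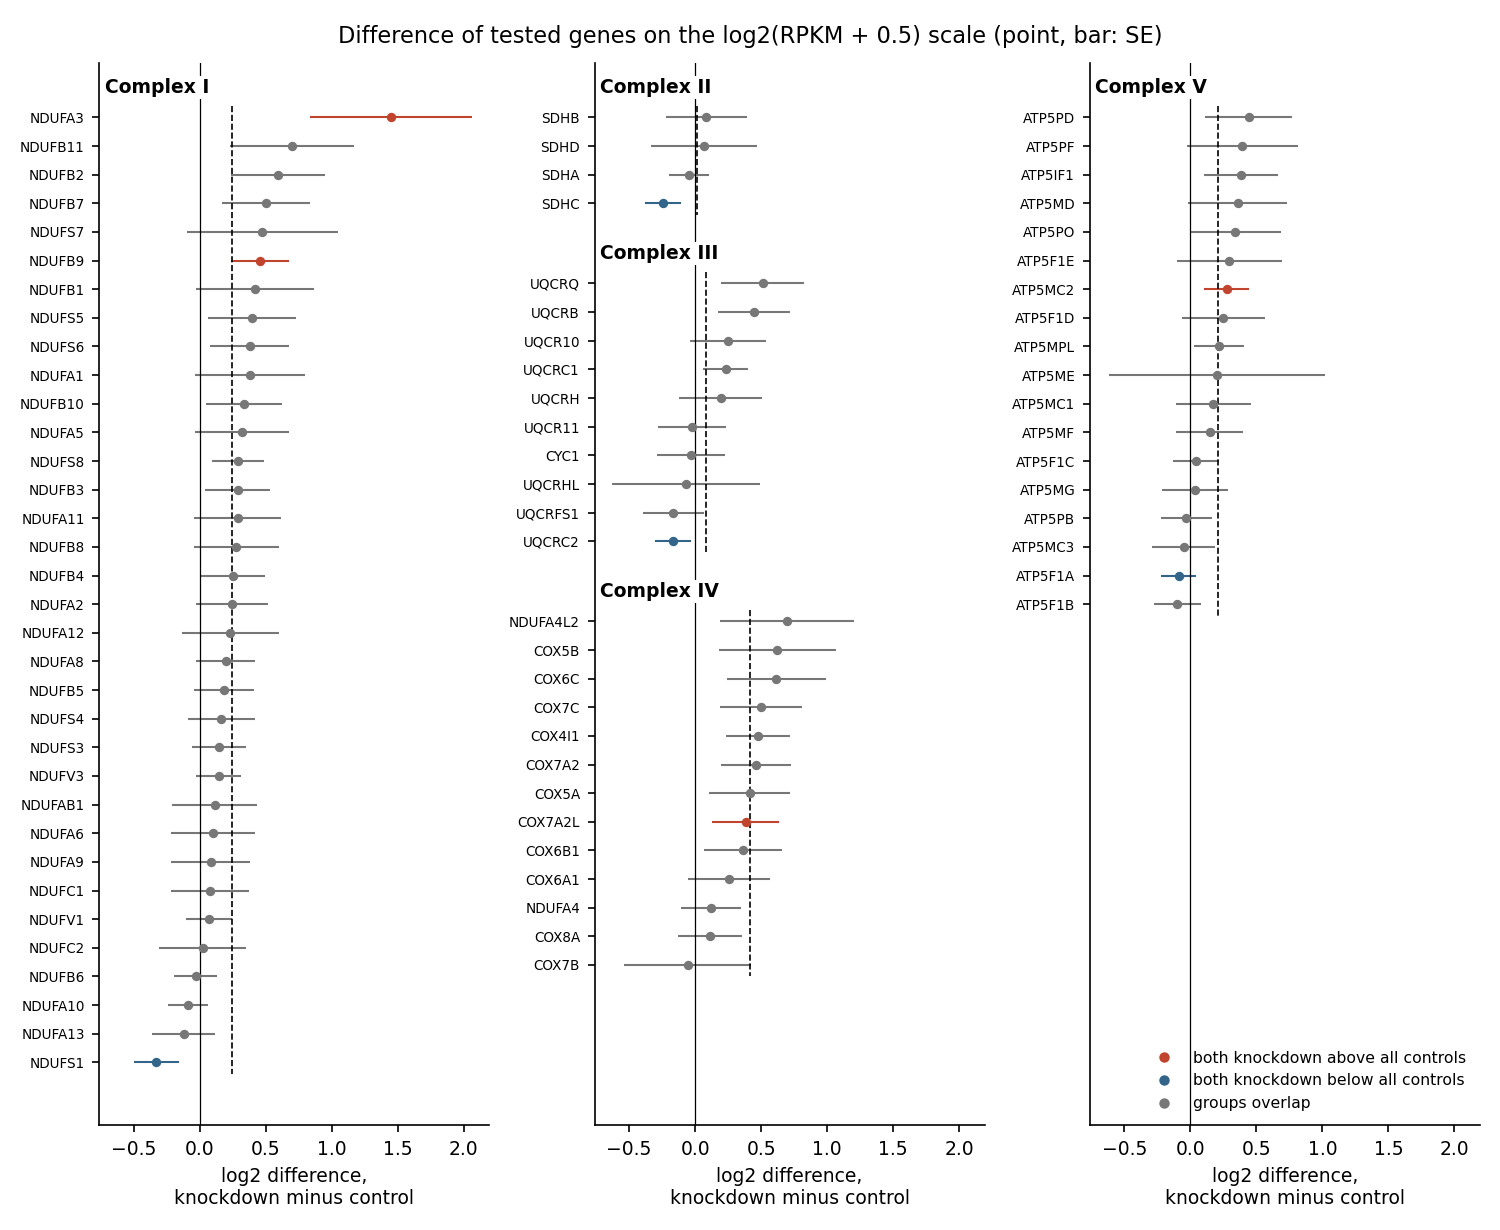
Fitted difference of the tested genes (1 is not drawn), knockdown minus control on the log2(RPKM + 0.5) scale, with its standard error as a bar, by complex. The dashed line is the median of the complex, red points are genes with both knockdown libraries above all controls, blue points those with both below, and grey points those whose groups overlap. Most points lie right of 0 with bars that cross or come near it, and complex IV has the highest median, 0.41.

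The lean followed single libraries as much as the groups. After each gene's mean over the 5 libraries was subtracted on the log2 scale, the median member stood at 0.00 in knockdown 1 and 0.30 in knockdown 3, against 0.16 in control 1, −0.12 in control 2 and −0.21 in control 3. Knockdown 3 and control 1 were therefore both high, and knockdown 1 lay between control 1 and control 2. Knockdown 3 was the highest library for 42 of the 80 members and knockdown 1 for 2, against 18 in control 1, 10 in control 2 and 8 in control 3. The lowest library was knockdown 1 for 10 members and knockdown 3 for 2, against 3 for control 1, 30 for control 2 and 35 for control 3. The median member was 0.28 higher in knockdown 3 than in knockdown 1 and 0.29 higher in control 1 than in control 3, each as large as the difference of 0.23 between the groups. Without knockdown 3 the median difference of the members was 0.062, with 46 of 80 above 0. Without control 3 it was 0.11, with 52 above 0, without knockdown 1 it was 0.39, with 70 above 0, and without control 1 it was 0.32, with 69 above 0.

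**Figure D3:**
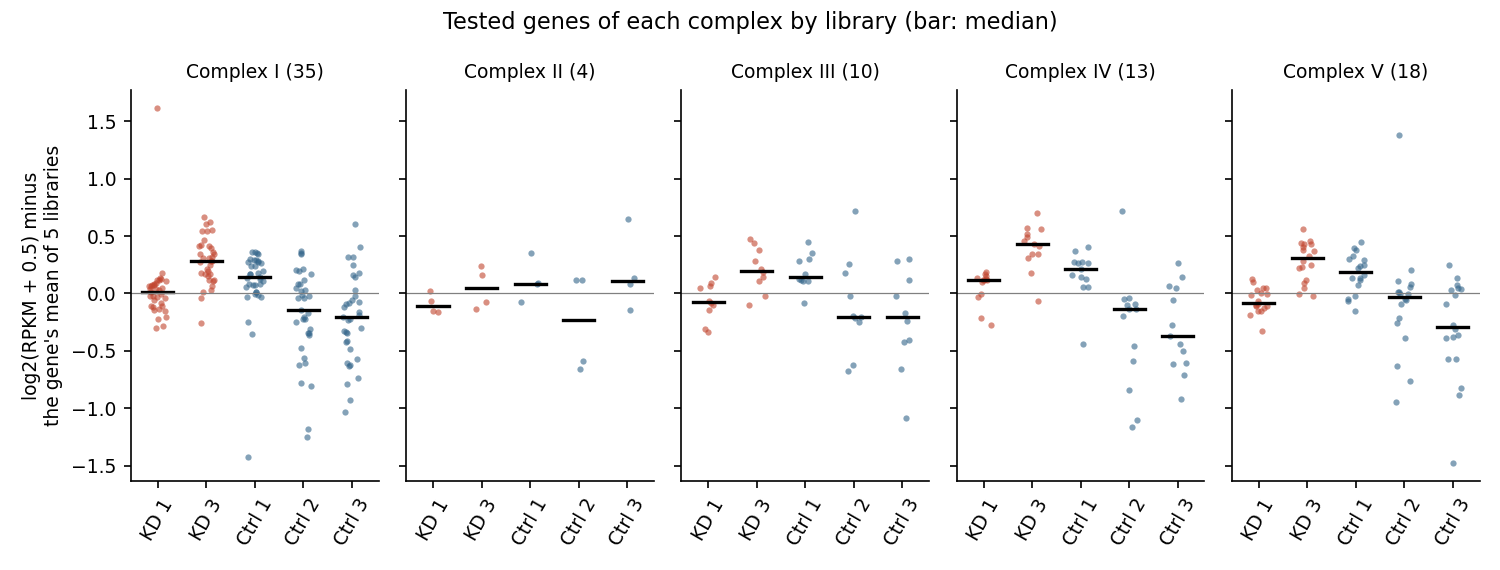
Deviation of each tested gene from its own mean over the 5 libraries (log2 scale), in knockdown libraries (KD) 1 and 3 and control libraries (Ctrl) 1, 2 and 3, by complex. Each point is a gene and each bar the median of the complex in that library. The medians of KD 3 and Ctrl 1 lie above 0 in all 5 panels, and in complex IV the medians are 0.12 and 0.43 in KD 1 and 3 against 0.21, −0.13 and −0.37 in Ctrl 1, 2 and 3.

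The share of all assigned reads that fell on the 91 genes showed the same order of libraries. It was 0.939% in knockdown 1 and 1.11% in knockdown 3, against 1.06% in control 1, 0.887% in control 2 and 0.799% in control 3. The mean was 1.02% ± 0.117 in knockdown (SD, n = 2) and 0.915% ± 0.132 in control (SD, n = 3). The groups overlapped, and the difference of 0.108 percentage points was smaller than either SD.

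The difference between control 1 and control 3 was wider in short genes. Among the 40 members at or under the median exon length of 2468.5 bases, control 1 was above control 3 by a median of 0.71, while among the 40 longer members it was above by 0.16. Knockdown 3 was above knockdown 1 by a median of 0.33 in the short members and 0.24 in the long ones. Between control 1 and control 2 the order was the other way, with 0.26 in the short members and 0.32 in the long ones. The 4 members above all controls and the 4 below were all among the 40 longer members (10% each). None of the short members separated the groups. The share over all genes was not split by length. Across the 80 members the Spearman correlation of exon length with the difference of control 3 minus control 1 was 0.49, and with the difference of knockdown minus control it was −0.27. Over all 15408 genes tested the same correlations were 0.34 and −0.23, as descriptions across genes that share the same libraries. When trends on length and GC content were taken out library by library, the median difference of the members was 0.15 and 63 of 80 were above 0. The part of length in the members' lean beyond that was not tested.

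**Figure D4:**
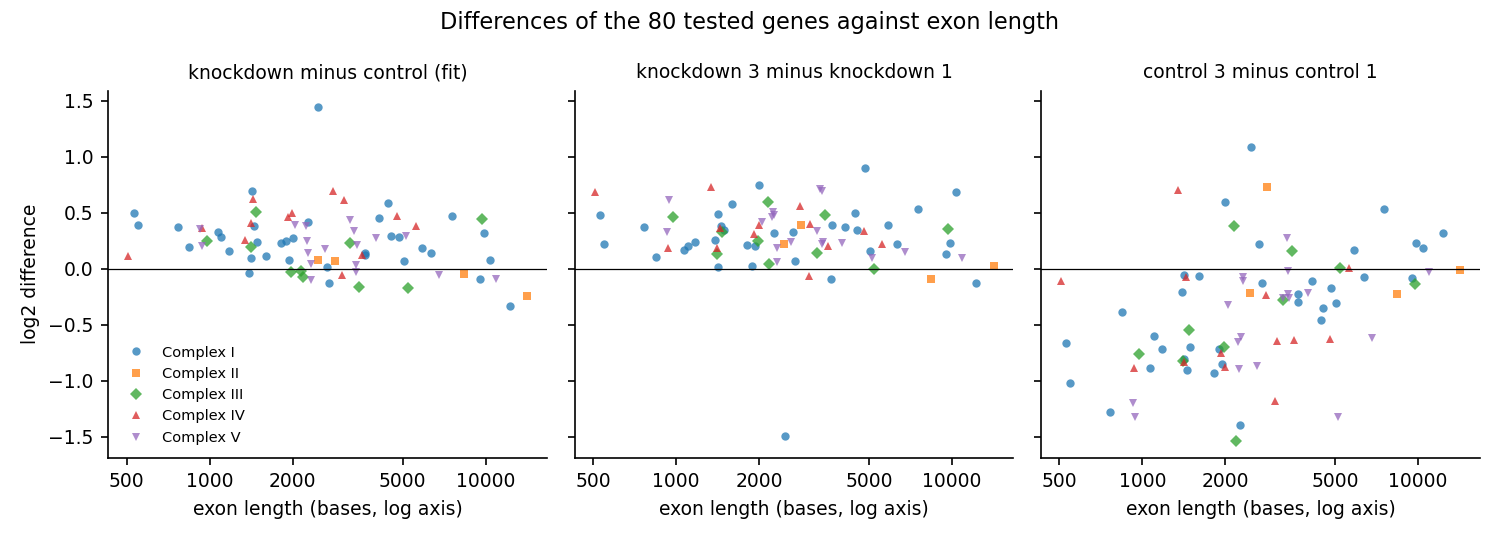
Difference of each of the 80 tested genes (log2 scale) against its exon length in bases (log axis), with complexes marked by colour and shape. The panels show knockdown minus control from the fit, knockdown 3 minus knockdown 1, and control 3 minus control 1. In the control panel the short genes lie mostly below 0, and they reach far lower than in the knockdown minus control panel.

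Complex I takes electrons from NADH. Its 38 genes comprised 7 core subunits with a median level of 19.1 RPKM, 30 accessory subunits with a median of 17.6 RPKM and a read-through locus. The difference was above 0 in 31 of the 35 tested genes, with a median of 0.24. Its size turned on single libraries: the median was 0.12 without knockdown 3, 0.11 without control 3 and 0.40 without knockdown 1. The core genes had a median of 0.14 (5 of 6 above 0) and the accessory genes of 0.25 (26 of 29 above 0).

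The highest genes of complex I were 3 accessory subunits of its membrane arm. NDUFS5 had 260 and 303 RPKM in knockdown 1 and 3, against 289, 237 and 143 RPKM in control 1, 2 and 3. NDUFA1 had 169 and 219 RPKM in the knockdown libraries, against 211, 179 and 86.4 RPKM in the controls, and NDUFB7 had 149 and 208 RPKM against 181, 92.8 and 114 RPKM. In each of them knockdown 3 was high, control 1 lay between the knockdown libraries, and the groups overlapped. NDUFS5 differed by 0.39 (SE 0.33, limma adjusted p = 0.78).

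NDUFA3, a small accessory subunit at chr19:54102728-54109257, had the greatest difference of the members. It was at 5.39 RPKM in knockdown 1 and 1.595 RPKM in knockdown 3, against 0.22, 1.45 and 1.03 RPKM in control 1, 2 and 3. Both knockdown libraries were above all controls, but knockdown 3 stood next to control 2 and the value of knockdown 1 carried most of the difference, 1.44 (SE 0.61, limma adjusted p = 0.71). The gene is low, and 6.34% of its exon length overlaps TFPT.

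NDUFB9, an accessory subunit of the membrane arm at chr8:124539101-124580648, had 17.6 and 22.9 RPKM in the knockdown libraries, against 16.7, 11.7 and 15.5 RPKM in the controls. Its groups did not overlap, with 17.6 RPKM in knockdown 1 close to 16.7 RPKM in control 1, and the difference was 0.46 (SE 0.22, limma adjusted p = 0.71). MTSS1 and TATDN1 share 21.0% of its exon length. NDUFB2, also of the membrane arm, had 10.6 and 15.2 RPKM against 12.03, 5.42 and 8.60 RPKM, a difference of 0.59 (SE 0.36, limma adjusted p = 0.73) with overlapping groups.

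NDUFS1, a core subunit that carries iron-sulfur clusters, was the member of complex I that lay lowest in the knockdown libraries. At chr2:206114817-206159603 it had 9.23 and 8.43 RPKM in knockdown 1 and 3, against 10.2, 10.8 and 12.8 RPKM in control 1, 2 and 3. Both knockdown libraries were below all controls, and the difference was −0.33 (SE 0.17, limma adjusted p = 0.71). The other tested core genes had overlapping groups. NDUFV1, which binds the flavin that accepts electrons from NADH, had 83.4 and 93.2 RPKM against 89.9, 90.5 and 72.8 RPKM. The core genes NDUFS8, NDUFS3 and NDUFS7 averaged 45.4, 19.1 and 3.46 RPKM over the 5 libraries.

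Some subunits that every working complex I contains were close to 0. NDUFV2, a core iron-sulfur subunit, had 0.714 and 0.437 RPKM in knockdown 1 and 3, against 0.201, 0 and 0.376 RPKM in the controls, and did not pass the filter. These levels rest on 18 and 18 reads in the knockdown libraries and 5, 0 and 20 in the controls, while the annotated pseudogene that carries its name held 70 and 105 reads against 42, 26 and 48, so the level of NDUFV2 is uncertain. NDUFA7, an accessory subunit, had 0.305 and 0.233 RPKM against 0.462, 0 and 0.469 RPKM and did not pass it. NDUFA9, NDUFA11, NDUFA13, NDUFA3 and NDUFB8 averaged 1.29 to 1.95 RPKM. Many of these genes share exons with other genes: 33.5% of the exon length of NDUFA7 overlaps AC010323.1 or RPS28, and RPS28 itself was at 162 and 166 RPKM in the knockdown libraries and 134, 205 and 37.4 RPKM in the controls. By contrast, the gene sharing exons with NDUFV2 was at 0 in every library, and those sharing exons with NDUFA9 were at 0 to 0.0498 RPKM. Over the 91 genes, 42 without any shared exon had a median level of 37.0 RPKM, with 5 under 2 RPKM. The 29 sharing up to 20% had 27.6 RPKM, with 4 under 2 RPKM, and the 20 sharing more had 9.92 RPKM, with 8. Among those 8 are the read-through loci NDUFC2-KCTD14 and ATP5MF-PTCD1 and the tissue-restricted isoforms COX6A2 and COX6B2. How reads in shared exons were assigned, and whether counting used strand, is not given in the sources used here, so the levels of these genes are uncertain and the part of the counting in them was not tested. The other 19 accessory genes of complex I averaged between 5.97 and 88.8 RPKM.

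Complex II, succinate dehydrogenase, showed no common direction, with 2 of its 4 genes above 0 and a median difference of 0.011. The median turned to −0.21 without control 2, the shallowest library, and likewise with the replicate block, which leaves control 2 out of the comparison, and to −0.079 without knockdown 3. SDHA, the flavoprotein that oxidizes succinate, had 19.2 and 18.01 RPKM in knockdown 1 and 3, against 20.1, 20.7 and 17.1 RPKM in control 1, 2 and 3. SDHB, the iron-sulfur subunit, had 30.5 and 35.8 RPKM against 40.8, 21.0 and 35.2 RPKM. The groups of both overlapped.

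The membrane anchors of complex II differed from each other in their spread. SDHD had 8.91 and 11.9 RPKM in the knockdown libraries, against 9.44, 6.15 and 16.0 RPKM in the controls, with wide overlap. SDHC, at chr1:161314257-161375340, had 7.64 and 7.79 RPKM in knockdown 1 and 3, against 9.18, 9.39 and 9.13 RPKM in control 1, 2 and 3. The values were tight within each group, and both knockdown libraries lay below all controls by a difference of −0.24 (SE 0.14), which did not pass the test (limma adjusted p = 0.72).

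Complex III passes electrons from ubiquinol to cytochrome c. Of its 10 tested genes 5 were above 0, with a median difference of 0.085. The median turned to −0.036 without knockdown 3 and to −0.026 once trends against length and GC content were removed. It was 0.021 without control 3, 0.17 without control 2, 0.23 without control 1 and 0.27 without knockdown 1. UQCRH, the hinge protein beside cytochrome c1, was the highest at 141 and 155 RPKM in knockdown 1 and 3, against 153, 162 and 86.2 RPKM in control 1, 2 and 3. Its retrocopy UQCRHL had 4.98 and 5.16 RPKM against 7.34, 8.94 and 2.20 RPKM, and reads of such near-identical copies may have been split between them. CYC1, cytochrome c1 itself, had 75.4 and 89.6 RPKM against 101, 94.0 and 62.1 RPKM. In all of these control 3 was the lowest library and the knockdown libraries lay between the controls.

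The scaffold and iron-sulfur subunits of complex III gave narrower values. UQCRC1 had 79.4 and 87.8 RPKM in the knockdown libraries, against 81.8, 65.2 and 67.2 RPKM in the controls. UQCRC2, at chr16:21952660-21983660, had 21.3 RPKM in both knockdown libraries, against 24.7, 22.4 and 24.8 RPKM in control 1, 2 and 3, and was below all controls by −0.17 (SE 0.14, limma adjusted p = 0.77). UQCRFS1, the Rieske iron-sulfur protein, had 21.4 and 30.0 RPKM against 29.6, 23.5 and 33.2 RPKM, a difference of −0.16 (SE 0.23, limma adjusted p = 0.86) that was 0.074 without knockdown 1. The small subunits UQCR10, UQCRQ, UQCRB and UQCR11 averaged 66.8, 45.0, 11.3 and 8.95 RPKM.

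Complex IV, cytochrome c oxidase, had the highest median difference of the complexes, 0.41, with 12 of 13 tested genes above 0. Its catalytic subunits are encoded in the mitochondrial genome, so the genes here are accessory ones. They took 0.235% and 0.290% of reads in knockdown 1 and 3, against 0.253%, 0.202% and 0.163% in control 1, 2 and 3, and the groups overlapped through control 1. Without control 2 the median was 0.26, without control 3 it was 0.28, without control 1 it was 0.63 and without knockdown 1 it was 0.62.

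The forms of complex IV subunits found in most tissues were high. COX6B1 had 287 and 327 RPKM in knockdown 1 and 3, against 319, 246 and 172 RPKM in control 1, 2 and 3, a difference of 0.36 (SE 0.30, limma adjusted p = 0.77). COX7C had 184 and 242 RPKM against 192, 166 and 105 RPKM, and COX8A had 124 and 199 RPKM against 155, 137 and 144 RPKM. Control 1 reached the knockdown range in each of the 3 genes.

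COX4I1, a regulatory subunit that binds ATP, had the lowest p of complex IV. At chr16:85798633-85807044 it had 117 and 148 RPKM in knockdown 1 and 3, against 117, 94.0 and 76.0 RPKM in control 1, 2 and 3, a difference of 0.48 (SE 0.24, limma adjusted p = 0.71). COX7A2, a subunit at the edge of the complex, had 104 and 129 RPKM against 105, 89.4 and 62.4 RPKM, a difference of 0.46 (SE 0.27, limma adjusted p = 0.72). In both genes knockdown 1 and control 1 had almost the same level and knockdown 3 was highest. COX7A2L, which helps join complexes III and IV into supercomplexes, had 13.9 and 16.3 RPKM against 13.3, 8.33 and 13.4 RPKM. Its groups did not overlap, although knockdown 1 was within 1 RPKM of control 1 and control 3, and it differed by 0.38 (SE 0.25, limma adjusted p = 0.73). The remaining tested genes COX5B, COX5A, NDUFA4, COX7B, COX6A1 and COX6C averaged 27.6 to 102 RPKM, and COX7B was the single gene of complex IV below 0, with 51.9 and 49.6 RPKM in the knockdown libraries against 62.7, 85.5 and 27.3 RPKM in the controls.

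The tissue-restricted isoforms of complex IV were at or near 0, each next to a high partner. COX4I2 was at 0 and 0.0949 RPKM in knockdown 1 and 3 and at 0 in the controls, while COX4I1 averaged 110 RPKM over the 5 libraries. COX6A2, the form of heart and skeletal muscle, was at 0 in all 5, while COX6A1 averaged 32.8 RPKM. COX6B2, a testis form, was at 0.113 and 0.138 RPKM in the knockdown libraries and 0 to 0.114 RPKM in the controls. COX7A1, the other muscle form, was at 0.214 and 0.0654 RPKM against 0.325, 0 and 0.304 RPKM. COX7B2 was at 0.133 and 0 RPKM against 0 in the 3 controls, while COX7B averaged 55.4 RPKM. None of these 5 isoforms, nor COX8C, passed the filter, and a difference in them was not detectable at this depth.

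NDUFA4L2, a paralog of NDUFA4 known to be induced in low oxygen, was the exception among the isoforms in passing the filter. It was at 0.728 and 1.31 RPKM in knockdown 1 and 3, against 0.854, 0 and 0.654 RPKM in control 1, 2 and 3, with overlapping groups and a difference of 0.70 (SE 0.50, limma adjusted p = 0.74). NDUFA4 had 66.4 and 76.6 RPKM against 81.4, 65.8 and 52.4 RPKM.

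Complex V, ATP synthase, joins a catalytic head to a proton-driven ring of c subunits. Of its 18 tested genes 14 were above 0, with a median difference of 0.21. The median turned to −0.013 without knockdown 3, and it was 0.015 without control 3 and 0.38 without knockdown 1. By role, the median was 0.045 in the 5 genes of the head, 0.17 in the 3 genes of the c ring and 0.22 in the 9 genes of the stalk and membrane part, of which 8 were above 0.

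The head holds the catalytic sites. ATP5F1B, the catalytic beta subunit, was the highest of all 91 genes at 364 and 381 RPKM in knockdown 1 and 3, against 422, 374 and 401 RPKM in control 1, 2 and 3, a difference of −0.10 (SE 0.18, limma adjusted p = 0.89). ATP5F1A, the alpha subunit at chr18:46080248-46104334, had 34.2 and 36.5 RPKM against 38.6, 36.6 and 37.8 RPKM. Its knockdown libraries lay below all controls by −0.090 (SE 0.13, limma adjusted p = 0.87), and the sign turned to 0.074 once trends against length and GC content were removed. ATP5F1C, the gamma subunit that turns inside the head, had 70.9 and 80.9 RPKM against 81.7, 64.0 and 75.8 RPKM. ATP5F1D and ATP5F1E, which complete the central stalk, averaged 24.8 and 25.6 RPKM.

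Every copy of the c-ring subunit comes from 1 of 3 genes that encode the same mature protein. ATP5MC2, at chr12:53632726-53677408, had 59.3 and 69.8 RPKM in knockdown 1 and 3, against 54.9, 57.7 and 47.3 RPKM in control 1, 2 and 3, and was above all controls by 0.27 (SE 0.17, limma adjusted p = 0.73). ATP5MC3 had 54.6 and 60.7 RPKM against 69.5, 68.0 and 45.0 RPKM, and ATP5MC1 had 33.6 and 39.8 RPKM against 42.0, 35.3 and 22.8 RPKM. The groups of those 2 genes overlapped, so the 3 genes did not share an order of libraries.

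The inhibitor ATP5IF1, which blocks the head when the proton gradient fails, had 60.5 and 83.5 RPKM in knockdown 1 and 3, against 74.5, 46.1 and 47.1 RPKM in control 1, 2 and 3. Control 1 lay between the knockdown libraries, and the difference was 0.38 (SE 0.28, limma adjusted p = 0.75). ATP5MD, a small membrane subunit, had 109 and 138 RPKM against 137, 107 and 59.7 RPKM. Among the stalk and membrane genes, ATP5ME had the widest controls, with 8.70 and 13.6 RPKM in the knockdown libraries against 8.92, 26.7 and 3.26 RPKM, and 61.6% of its exon length is shared with MYL5. ATP5PB, ATP5MF, ATP5PF, ATP5PD, ATP5MPL, ATP5PO and ATP5MG averaged 5.76 to 46.2 RPKM.

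The remaining genes that did not pass the filter are copies and read-through loci. ATP5MGL, a retrocopy of ATP5MG, was at 0 in both knockdown libraries and at 0, 0.642 and 0 RPKM in control 1, 2 and 3. ATP5MF-PTCD1 and NDUFC2-KCTD14 were detected in knockdown 3 alone among the 5, at 0.0460 and 0.0797 RPKM, and share 93.8% and 100% of their exon length with other genes. In all, 160 annotated pseudogenes carry the names of 46 members. They took 0.632% and 0.462% as many reads as the members in knockdown 1 and 3, against 0.529%, 1.12% and 0.531% in control 1, 2 and 3.

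The 13 subunits encoded in the mitochondrial genome, partners of these genes in complexes I, III, IV and V, followed another order of libraries. They took 7.12% and 6.64% of all assigned reads in knockdown 1 and 3, against 6.37%, 9.42% and 4.14% in control 1, 2 and 3. Control 2 was thus highest for them, while the nuclear genes were low there. Control 3 was low for both: it was the lowest library for all 13 genes and for 35 of the 80 tested nuclear members. Of the 13, 10 had a difference above 0, with a median of 0.21, and none was called. MT-ND3, a complex I subunit, had 2200 and 2445 RPKM in the knockdown libraries against 1733, 1777 and 1045 RPKM in the controls, a difference of 0.65 (SE 0.34, limma adjusted p = 0.71).

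Other genes of respiration were read from lists, chosen like the members with earlier results of these data known, and in none did a gene pass the adjusted test. Of the electron carriers and coenzyme Q synthesis genes 9 of 16 were above 0, with a median difference of 0.031. ETFB, a carrier of electrons from fatty acid oxidation, had 8.65 and 13.2 RPKM in knockdown 1 and 3, against 7.41, 4.48 and 7.27 RPKM in control 1, 2 and 3 (difference 0.74, SE 0.30, limma adjusted p = 0.71). PDSS1, which builds the side chain of coenzyme Q, had 2.26 and 3.803 RPKM against 3.73, 4.46 and 4.64 RPKM (difference −0.47). Of the complex I assembly factors 7 of 17 were above 0, with a median of −0.009, where the subunits they assemble had 31 of 35 above 0. Of the assembly factors of complexes II to V 21 of 35 were above 0, with a median of 0.12. SURF1, a complex IV assembly factor, had 24.1 and 33.8 RPKM against 23.0, 14.6 and 17.4 RPKM (difference 0.65), and FASTKD2, which acts on mitochondrial RNA, had 3.73 and 3.53 RPKM against 4.605, 4.73 and 5.98 RPKM (difference −0.43).

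The regulators of mitochondrial biogenesis had a median of 0.00, with 7 of 13 tested genes above 0. PPRC1, a coactivator related to PGC-1, had 7.02 and 5.92 RPKM in knockdown 1 and 3, against 9.58, 10.2 and 10.6 RPKM in control 1, 2 and 3, clear of all controls, a difference of −0.61 (SE 0.16, limma adjusted p = 0.71). NRF1, the factor whose motif is frequent in the members' promoters, had 3.94 and 4.02 RPKM against 5.02, 4.98 and 4.53 RPKM, also below all controls (difference −0.25, SE 0.16). Of the citric acid cycle and pyruvate entry genes 5 of 21 were above 0, with a median of −0.15. MPC1, a subunit of the carrier that brings pyruvate into mitochondria, had 13.9 and 16.5 RPKM against 23.4, 23.2 and 21.6 RPKM (difference −0.57, SE 0.15), and IDH2 had 138 and 154 RPKM against 113, 102 and 97.4 RPKM (difference 0.49, SE 0.16). The nucleotide and phosphate carriers, uncouplers and VDAC channels, read as a single list, had 6 of 8 above 0 and a median of 0.047. VDAC2 had 64.2 and 70.5 RPKM against 58.2, 46.5 and 58.7 RPKM (difference 0.31).

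A list of genes linked to low oxygen had 8 of 10 above 0 and a median difference of 0.32. CA9, a carbonic anhydrase used as a marker of low oxygen, had 15.3 and 18.01 RPKM in knockdown 1 and 3, against 6.26, 7.68 and 7.67 RPKM in control 1, 2 and 3, a difference of 1.15 (SE 0.17, limma adjusted p = 0.71). BNIP3, which marks mitochondria for removal, had 70.2 and 82.9 RPKM against 44.2, 30.2 and 49.3 RPKM, a difference of 0.91 (SE 0.25, limma adjusted p = 0.71). Both knockdown libraries were above all controls in both genes. The 2 genes below 0 encode the oxygen-regulated subunits of the hypoxia-inducible factors. EPAS1 had 36.9 and 27.9 RPKM against 40.5, 45.6 and 45.5 RPKM, below all controls by −0.44 (SE 0.18, limma adjusted p = 0.71). HIF1A had 71.2 and 54.5 RPKM against 74.8, 64.3 and 111 RPKM, a difference of −0.38 with overlapping groups.

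Lists outside respiration differed in their lean, against 50% of all genes tested above 0. Of the cytosolic ribosomal protein genes 76 of 83 were above 0, with a median difference of 0.37, and their median deviations were 0.066 and 0.37 in knockdown 1 and 3, against 0.12, −0.29 and −0.27 in control 1, 2 and 3. Of the mitochondrial ribosomal protein genes 52 of 77 were above 0, with a median of 0.083, and their median deviations had another order, −0.053 and 0.20 in knockdown 1 and 3 against 0.15, −0.31 and 0.13 in control 1, 2 and 3. Of the hepatocyte markers 9 of 15 were above 0, with a median of 0.042, of the tested blood and immune markers 3 of 5, with a median of 0.63, and of the tested fibroblast and endothelial markers 2 of 5, with a median of −0.14. Whether the order of libraries in the respiratory genes and in the cytosolic ribosomal protein genes has 1 source was not tested.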

How the data were processed

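RNA of 6 libraries of an HCC cell line was sequenced, and the authors deposited 1 table with an RPKM value per gene and library, as the labels' description field states. HISAT2 and GRCh38 were used, per the submitters' processing notes. For the read counter, its annotation and its use of strand, the sources used here give nothing. All 58676 gene IDs matched GENCODE release 29 (GRCh38), which gave symbols, exon lengths, overlaps and 3′ UTRs. RefSeq (GRCh38.p14) gave miRNAs and promoters.

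In the 5 libraries used, 100% of the RPKM values above 0 times exon length were whole multiples of 1 step (tolerance 0.002 of a read), which gave assigned reads. In the left-out library 0.395% were. Groups were compared with limma 3.58.1 in R 4.3.3 (lmFit, then eBayes with trend) on log2(RPKM + 0.5) over the 15408 genes reaching 0.5 RPKM in 3 or more of the 5 libraries, without covariates, with Benjamini-Hochberg adjusted p under 0.05. The fit was also run on simulated counts with the same dispersion for every gene and no shifts between libraries. Such counts lack the library spread of these data, so the run cannot test the fit against it. Counts and medians of genes stand without a test. The values of 1 gene are not reported here, though it enters the counts.

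The members and gene lists were chosen with earlier results of these data known. Named with values are the 3 highest members of each complex, the 5 of smallest p in each direction, isoform families, ATP5IF1, the SDH genes, members that did not pass the filter, and at most 2 genes of smallest p from each other list, while NDUFV1, COX7B, NDUFA4, ATP5ME, EPAS1, HIF1A and cell type markers were described after their values were seen. Alternatives varied the pseudocount, filter, scaling, trend, depth, length and GC correction, the replicate block and the libraries included.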

Additional observations from a re-analysis of the deposited data

How the results depend on the processing

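No member passed the adjusted test under any alternative run, and the members' median difference stayed above 0 in all of them, between 0.062 (without knockdown 3) and 0.39 (without knockdown 1). It was 0.071 with limma voom and sample weights, 0.15 with length and GC trends removed, and 0.25 with either voom on the recovered reads, median-ratio scaling or quantile normalization. Over all genes tested, voom with sample weights called 3 genes higher and 1 lower, and the replicate block called 33 higher and 7 lower, against 0 in the report. None of these calls was a member.

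The number of members with both knockdown libraries above all controls was 4 in the report, 10 after quantile normalization, 7 after thinning the recovered reads to the shallowest library, 6 without a filter, and 3 with median-ratio scaling or with length and GC trends removed. With single libraries left out it ranged from 5 to 43, being 43 without knockdown 1 and 32 without control 1. The number with both below all controls was 4 in the report and 3 or 4 with all libraries kept, and with single libraries left out it ranged from 4 to 12, being 7 without control 2 and 12 without either control 3 or knockdown 3. Fewer libraries make separation easier by construction.

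The median of complex II was −0.21 with the replicate block, and it ranged from −0.21 (without control 2) to 0.051 (without knockdown 1) with single libraries left out. It was also below 0 with thinning (−0.047), voom (−0.066), voom with sample weights (−0.12) and the block with length and GC trends removed (−0.083). Without knockdown 3 the medians of complexes II, III and V turned to −0.079, −0.036 and −0.013. That of complex III was −0.026 with length and GC trends removed, and that of complex V −0.0028 with sample weights. The medians of complexes I and IV stayed above 0 in every alternative run. ATP5F1A was 0.074 with length and GC trends removed and 0.073 with the replicate block as well. UQCRFS1 ranged from −0.40 without knockdown 3 to 0.074 without knockdown 1. The cause was not tested.

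The replicate numbers 1 and 3 occur in both groups, and their deviations from the group means correlated at −0.168 and 0.018, so the numbers were not shown to pair the libraries. With the block the members' median was 0.19 and 62 of 80 were above 0. The depth of control 2, 1948940 reads, limits the low genes most.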
